A study of Mus musculus with 13 samples.

Results

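The repeat-linked transcripts of a mouse embryonic fibroblast (MEF) experiment are 3 rows of its expression table. Gm10800 and AC242409.1 were picked by name for their large differences with the drug 5-azacytidine (5-aza). Gm10801 is the only other row that starts in the short window of chromosome 2 around Gm10800. These are 3 of 25965 rows and were followed across all 13 libraries. The levels with and without 5-aza chose the first pair, so those differences are given as a description with no test. The comparisons between hairpins were not used in the choice and were tested.

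Poly(A) RNA was sequenced from primary XXist∆A/XPGK MEFs, obtained from E13.5 embryos. On 1 X chromosome of these cells Xist lacks the A repeat it needs for silencing, so that the X of the PGK strain is the inactive one. The cells were transduced with retroviral hairpins (short RNAs that lower a target transcript), selected with puromycin, and grown with or without 5-aza for 24 h from day 3. RNA was taken on day 7. Control hairpin cells received a non-silencing hairpin (replicates A and B) or a hairpin against Luciferase (replicate 1), and Setdb1 hairpin cells received shSetdb1.4 (replicates A and B) or shSetdb1.6 (replicate 1), each without and with 5-aza, which gives 4 groups of 3 libraries. The remaining library was treated with 5-aza and its title names no hairpin, while its library name carries PGK. The methods of the study use a PGK sample to find variants of that strain. The labels do not say whether this library is that sample, so its cells may differ in genotype from the others. The study places a gene trap allele of Setdb1 (Setdb1 +/gt) in cells that received Setdb1 hairpins and the wild-type allele in cells that received the non-silencing one, so hairpin and genotype cannot be told apart here, and the labels give no genotype per library. Nothing in the labels says that replicates came from separate embryos, so p-values measure the spread between these libraries, which may be technical.

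All 3 rows are annotated as protein-coding genes, and each is built from a tandem repeat that resembles the mouse major satellite. Major satellite arrays lie beside the centromere of mouse chromosomes, in pericentric heterochromatin. There Suv39h1 and Suv39h2 place trimethylation on lysine 9 of histone H3 (H3K9me3), HP1 proteins bind that mark, and the CpG sites of the repeat are kept methylated by Dnmt1 with its partner Uhrf1. 5-aza is built into new DNA and traps DNA methyltransferases, so that methylation is lost as cells divide. Setdb1 is another H3K9 methyltransferase, best known for silencing retroviral elements and genes outside the pericentric arrays.

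The sequences show the kinship of the 3 rows, and are printed from the GENCODE M21 transcripts (build GRCm38), 5′ to 3′ on the strand of the gene, with every CpG site in capitals. The unit shown first is the whole of exon 3 of AC242409.1 (chr14:19417133-19417366, minus strand). Its length of 234 bases is also the offset at which this transcript matched itself best. The other lines hold the stretch that aligned best with it within a chosen exon of each chromosome 2 member: 152 bases in exon 4 of Gm10800 (chr2:98666735-98666886, minus strand, 94.1% identity) and 232 bases in exon 1 of Gm10801 (chr2:98662237-98662468, plus strand, 94.8% identity). Only that exon was searched, and the stretch of Gm10800 stops where exon 4 ends.
AC242409.1: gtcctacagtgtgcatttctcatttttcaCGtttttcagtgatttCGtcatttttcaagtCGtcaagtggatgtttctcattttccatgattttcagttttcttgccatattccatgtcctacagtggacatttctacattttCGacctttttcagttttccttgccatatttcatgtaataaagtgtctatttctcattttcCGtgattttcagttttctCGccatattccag
Gm10800: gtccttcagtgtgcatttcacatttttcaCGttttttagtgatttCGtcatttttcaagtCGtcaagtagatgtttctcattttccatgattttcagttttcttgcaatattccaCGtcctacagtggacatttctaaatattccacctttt
Gm10801: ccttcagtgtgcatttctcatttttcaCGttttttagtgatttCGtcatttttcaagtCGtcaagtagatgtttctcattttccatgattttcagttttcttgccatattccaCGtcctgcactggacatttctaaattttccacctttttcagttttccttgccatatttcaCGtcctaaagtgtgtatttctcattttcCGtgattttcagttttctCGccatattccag
These stretches hold 6, 4 and 7 CpG sites in that order. Along their whole transcripts the members were 88.7% to 90.7% identical to one another on the same strand, and no 20-base word of one was found in the reverse complement of another.

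The longest run of bases present in all 3 members was 54 bases long. It lies at chr2:98662417-98662470 in Gm10801 and at chr2:98667136-98667189 in Gm10800, and it spans a junction of exons in AC242409.1.
Common run: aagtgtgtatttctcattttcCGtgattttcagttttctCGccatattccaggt
Of 55450 annotated genes, 7 held this run on either strand (0.0126%). They were the 3 members, 3 of the 9 related rows on chromosome 9 described below, and Gm26870, an annotated gene that is no row of the table. Pairs of members shared longer exact runs, of 86 bases between Gm10801 and Gm10800 and of 67 bases between Gm10800 and AC242409.1. The study's methods give single-end reads longer than these runs. How the submitters' counting placed reads that match several sites is not given in the sources used here, so the split of reads among these rows is uncertain.

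Gm10800 (ENSMUSG00000075014) lies at chr2:98666547-98667301 on the minus strand, with 5 exons that sum to 660 bases. 3 of the 4 gaps between its exons were under 30 bases, the shortest of 1 base, too short for a usual intron. Gm10801 (ENSMUSG00000075015, chr2:98662237-98664083, plus strand) has 4 exons and 504 bases, and AC242409.1 (ENSMUSG00000095280, named Gm21738 in GENCODE M21, chr14:19415857-19418930, minus strand) has 6 exons and 681 bases. Every exonic base of the 3 models is annotated as coding, with no UTR.

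Compared with itself at each offset up to 400 bases, AC242409.1 matched best at 234 bases, with 62.4% equal bases against a median of 30.9% over all offsets. Its next best offsets were 58 bases (58.6%) and 116 bases (52.9%). Gm10800 matched itself best at 225 bases (56.3%) and then at 58 bases (51.2%). Gm10801 matched itself at 89.4% at an offset of 400 bases and at 52.7% at 231 bases. The offset of 400 bases was the last one compared, and it leaves only a short overlap of this 504-base transcript.

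**Figure D1:**
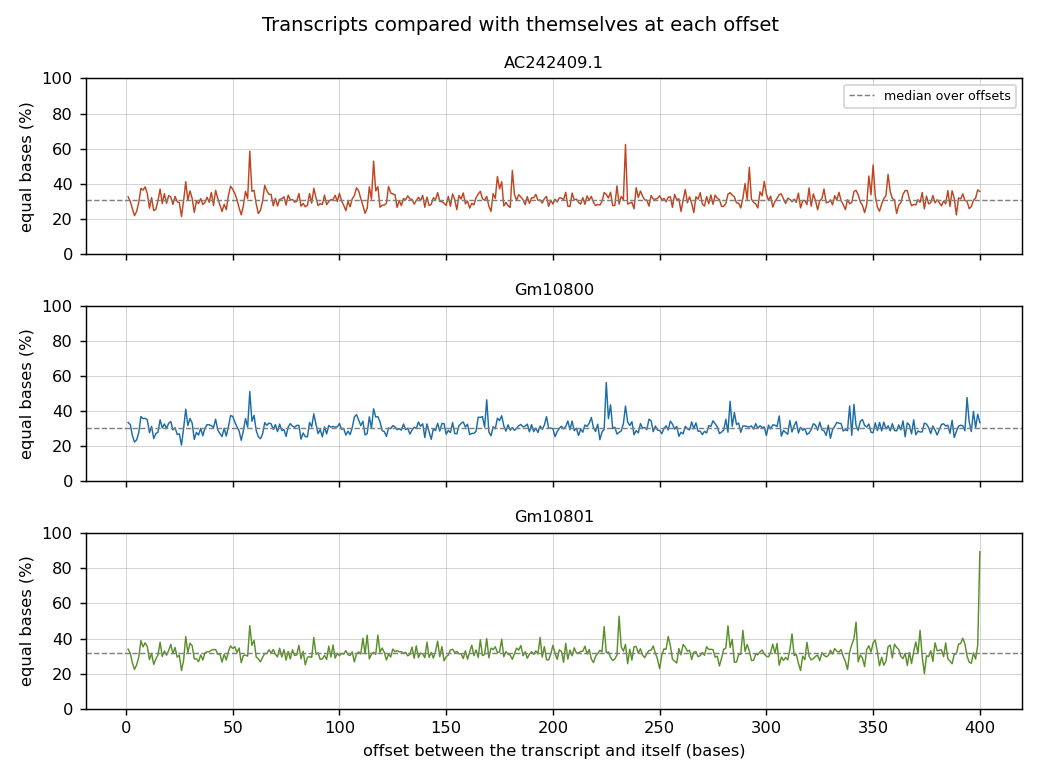
Percent of equal bases (vertical axis) when each member transcript is laid on itself at offsets of 1 to 400 bases (horizontal axis), with the median over offsets dashed. AC242409.1 shows peaks at 58, 116 and 234 bases, Gm10800 at 58 and 225 bases, and Gm10801 at 231 bases, over medians near 31%. Gm10801 is highest at 400 bases, the last offset, where a peak cannot be told from a rise.

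The members shared a base composition that the rule did not use. Their GC content was 34.3% in Gm10801, 35.9% in Gm10800 and 35.2% in AC242409.1, while the median over the longest transcripts of the tested genes was 49.7%. T made up 45.8% to 47.4% of their bases on the transcript strand, against a median of 24.8%. CpG sites were about as frequent as in other transcripts, at 1.98, 2.88 and 2.64 per 100 bases in Gm10801, Gm10800 and AC242409.1 against a median of 2.42, and 64.9% of the tested genes lay below Gm10800. Relative to what their C and G content would give, the observed number of CpG sites was 0.727 in Gm10801, 0.956 in Gm10800 and 0.904 in AC242409.1, against a median of 0.398. No promoter sequence was at hand for the members.

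The hairpin libraries implied totals of 41.9 to 58.8 M reads (M, 1000000 reads), of which 36.4 to 51.3 M lay in genes, and the library whose title names no hairpin 20.4 M and 17.4 M. Values are reads per M reads of the library (RPM), from which whole reads were recovered, and 1 read was worth 0.0170 to 0.0239 RPM in the hairpin libraries. Setdb1 checked the labels: it stood at 46.1 to 46.4 RPM in control hairpin libraries and 12.1 to 15.4 RPM in Setdb1 hairpin libraries, and with 5-aza at 42.7 to 43.9 RPM and 10.5 to 14.5 RPM. Of 12 fibroblast markers, 11 were at or above 1 RPM in every hairpin library, with Col1a1 from 4750 to 11424 RPM. Lists for other cell types moved with the treatment: the 4 germ cell markers summed to 0.725 to 0.786 RPM in control hairpin libraries and 2.42 to 2.82 RPM with 5-aza, the 4 muscle markers to 15.2 to 18.3 and 27.5 to 33.7 RPM, the 4 epithelial markers to 2.64 to 3.16 and 8.57 to 10.6 RPM, and the 6 macrophage markers to 10.4 to 11.2 and 12.6 to 14.7 RPM. The 4 endothelial markers summed to 3.38 to 5.67 and 2.54 to 4.75 RPM, and the pluripotency markers Pou5f1 and Zfp42 had 0 reads in every hairpin library. Single genes carried much of these sums. Over the hairpin libraries Krt18 reached 20.5 RPM and Krt8 2.88 RPM, but Epcam only 0.119 RPM and Cdh1 0.0800 RPM. Dazl reached 4.16 RPM and Sycp3 1.61 RPM, but Ddx4 only 0.499 RPM and Mael 0.307 RPM. The part of these lists in the results below was not tested. In bulk RNA more cells with a transcript and more transcript per cell cannot be told apart.

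Gm10800 was close to silent in untreated cells and was readily counted after 5-aza. Control hairpin cells held 21, 18 and 21 reads of Gm10800 in replicates A, B and 1, and Setdb1 hairpin cells held 24, 38 and 20. With 5-aza the same cells held 1491, 1441 and 1049 reads with control hairpins and 1896, 1794 and 1541 reads with Setdb1 hairpins. Every treated library stood far above every untreated one, with no overlap. In RPM, the mean was 0.402 ± 0.0394 (SD, n = 3) in control hairpin cells and 26.9 ± 5.18 (SD, n = 3) with 5-aza, a ratio of 66.9. In Setdb1 hairpin cells it was 0.543 ± 0.0905 (SD, n = 3) and 34.4 ± 4.34 (SD, n = 3), a ratio of 63.4. Within single cultures the ratio ran from 48.7 (control, replicate 1) to 86.5 (control, replicate A). Ranked among all 25965 rows, Gm10800 moved from places 13346 to 13827 without 5-aza to places 4681 to 6551 with it.

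AC242409.1, on another chromosome, followed the same course at a lower level. Its reads numbered 15, 4 and 10 in control hairpin cells and 7, 7 and 5 in Setdb1 hairpin cells. With 5-aza they were 546, 486 and 387 with control hairpins and 578, 632 and 580 with Setdb1 hairpins. The treated and untreated libraries did not overlap, and the untreated counts were so low that their ratio is uncertain. Mean RPM went from 0.188 ± 0.0919 to 9.61 ± 1.93 (SD, n = 3) in control hairpin cells, a ratio of 51.1, and from 0.129 ± 0.0163 to 11.8 ± 0.749 (SD, n = 3) in Setdb1 hairpin cells, a ratio of 91.5. Single cultures gave ratios of 37.7 to 106, the highest from the libraries with 4 and 7 reads before treatment.

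Gm10801, although it lies on the same stretch of chromosome 2 as Gm10800, stayed low. It had 0, 1 and 0 reads in control hairpin cells and 0, 1 and 0 in Setdb1 hairpin cells. With 5-aza it had 18, 13 and 12 reads with control hairpins and 20, 23 and 15 with Setdb1 hairpins, again with no overlap. Its means with 5-aza were 0.293 ± 0.0821 and 0.382 ± 0.0866 RPM (SD, n = 3). Set against the 3 reads per library that a count near 0 allows, Gm10801 was at least 4.84-fold higher with 5-aza in control hairpin cells and at least 6.17-fold higher in Setdb1 hairpin cells. These bounds, like the intervals given for single libraries, cover counting error only. It did not reach 1 RPM in 3 libraries, so 2 of the 3 members entered the fit across genes.

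All 3 members had every treated library above every untreated one, as did 15.6% of all rows with control hairpins and 19.1% with Setdb1 hairpins. Because these differences chose the members, nothing is read from that count. With 5-aza, limma called 18.8% of 13134 tested genes in control hairpin cells and 28.9% in Setdb1 hairpin cells, in either direction. Of the called genes, 71.6% were higher with control hairpins and 74.0% with Setdb1 hairpins, and 49.0% and 52.3% under median centring, where the log2 differences of Gm10800 were 6.01 and 5.93 and those of AC242409.1 were 5.76 and 6.46.

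**Figure D2:**
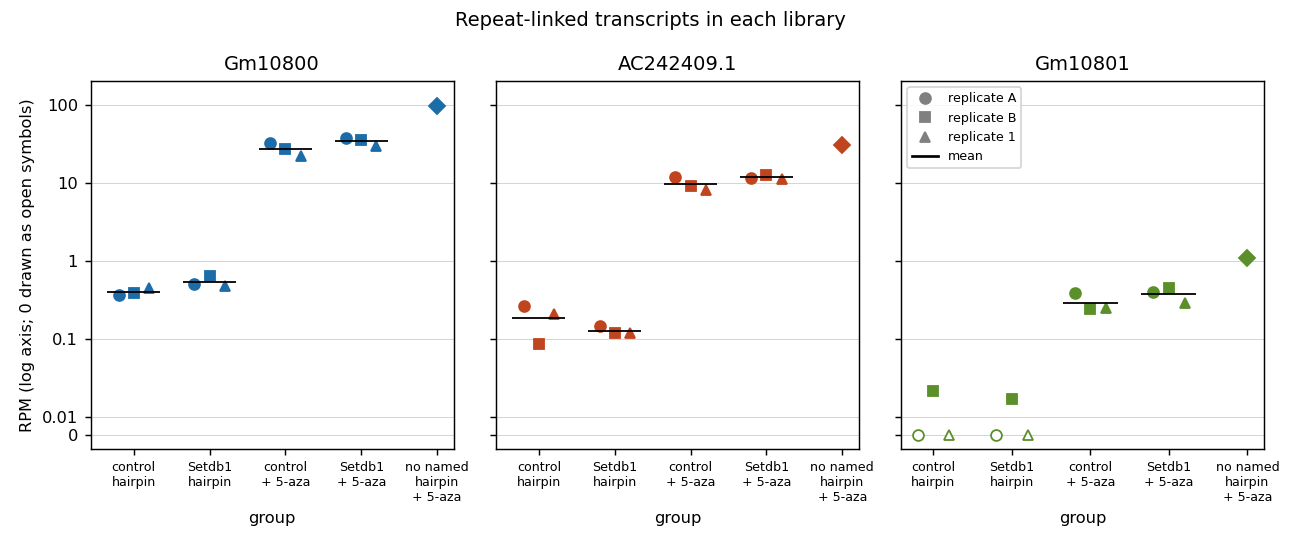
RPM of each member (vertical axis, logarithmic, with 0 reads drawn as open symbols on the lowest line) in each library, grouped by hairpin and 5-aza, with lines at the means of 3. Gm10800 lies between 0.371 and 0.646 RPM in the untreated libraries and between 21.7 and 37.9 RPM in the hairpin libraries with 5-aza, and the single library with no named hairpin lies higher for all 3 members.

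The proportions among the members were steady once reads were plentiful. In the 6 hairpin libraries with 5-aza, Gm10800 had 2.66 to 3.28 times the reads of AC242409.1, and 78.0 to 111 times the reads of Gm10801. In the untreated libraries, on 4 to 15 reads of AC242409.1, the first ratio was uneven and reached 5.43. Per kilobase of transcript, with 5-aza, Gm10800 stood at 40.7 RPM in control and 52.1 RPM in Setdb1 hairpin cells, AC242409.1 at 14.1 and 17.3 RPM, and Gm10801 at 0.581 and 0.758 RPM. The order was the same in every library with 5-aza, and within the 6 hairpin libraries neighbours in that order did not overlap. Together the members took 0.00343% to 0.00571% of reads in genes with 5-aza and at most 8.97e-05% without. Within each hairpin group with 5-aza, the replicate 1 library, which carried another hairpin sequence, was the lowest for Gm10800 and AC242409.1. The part of the hairpin sequence was not tested, since each such group holds 1 library with that sequence.

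Whether the members differed with Setdb1 depletion was tested next, with limma on log2 RPM across 13134 genes and Benjamini-Hochberg adjustment. Neither Gm10800 nor AC242409.1 was called different between Setdb1 and control hairpin cells, with or without 5-aza, while 12.4% of genes were called without 5-aza and 19.9% with it. Both members passed the filter of 1 RPM only through their libraries with 5-aza. The comparison without 5-aza rests on 4 to 38 reads per library, too few to read the missing call as no difference. Sums of markers of other cells moved with these hairpins too. Without 5-aza the 4 epithelial markers summed to 9.62 to 10.5 RPM in Setdb1 hairpin libraries, against the control levels given above. The 4 pluripotency markers summed to 2.31 to 2.58 RPM against 0.407 to 0.518 RPM. With 5-aza the epithelial markers summed to 20.7 to 23.5 RPM in Setdb1 hairpin libraries against 8.57 to 10.6 RPM in control hairpin libraries, the germ cell markers to 5.24 to 5.85 RPM against 2.42 to 2.82 RPM, and the pluripotency markers to 1.18 to 1.99 RPM against 0.435 to 0.503 RPM. Of the pluripotency markers, Sox2 reached 2.43 RPM over the hairpin libraries and Nanog 0.505 RPM, and the others had no reads. The part of these lists was not tested.

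Without 5-aza, Gm10800 was 0.42 higher in Setdb1 hairpin cells on the log2 scale (SE 0.16, 95% interval 0.08 to 0.77, adjusted p = 0.101, unadjusted p = 0.0193, limma). Its lowest Setdb1 hairpin library, at 0.477 RPM, stood above its highest control library, at 0.446 RPM. Such a separation was found in 14% of all rows. With 5-aza the difference was 0.37 (SE 0.16, 95% interval 0.02 to 0.71, adjusted p = 0.120, unadjusted p = 0.0385, limma) and the groups overlapped. The size of the difference without 5-aza depended on the scaling: it was 0.14 on the log2(RPM + 1) scale and 0.00459 with quantile normalization (adjusted p = 0.990, limma). 

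AC242409.1 was lower in Setdb1 hairpin cells without 5-aza (log2 difference -0.41, SE 0.32, 95% interval -1.11 to 0.30, adjusted p = 0.459, limma). The groups overlapped. This value turned on single control libraries: without replicate A, with its 15 reads, the difference was -0.0831, and without replicate B, with its 4 reads, it was -0.89 and passed the threshold (adjusted p = 0.0126, limma). With quantile normalization it was -1.87 (adjusted p = 0.00117, limma). With 5-aza AC242409.1 was 0.31 higher (SE 0.32, 95% interval -0.40 to 1.01, adjusted p = 0.527, limma). Gm10801 could be compared only with 5-aza, where its mean log2 RPM was 0.39 higher in Setdb1 hairpin cells (two-sided exact permutation test, p = 0.2, n = 3 against 3, smallest possible p 0.1).

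The responses to 5-aza with Setdb1 and with control hairpins were also set side by side. These responses were known when the members were chosen. The p-values of their difference are therefore not free of that choice, and no conclusion is drawn from them. The interaction, the log2 difference with 5-aza in Setdb1 hairpin cells minus that in control hairpin cells, was -0.06 for Gm10800 (SE 0.22, 95% interval -0.54 to 0.42, adjusted p = 0.950, limma) and 0.71 for AC242409.1 (SE 0.46, 95% interval -0.29 to 1.71, adjusted p = 0.794, limma). Of the tested genes, 0.388% were called. For AC242409.1 the interaction passed the threshold under quantile normalization (2.11, adjusted p = 0.0349, limma), and the sign of the value of Gm10800 changed with the pseudocount.

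**Figure D3:**
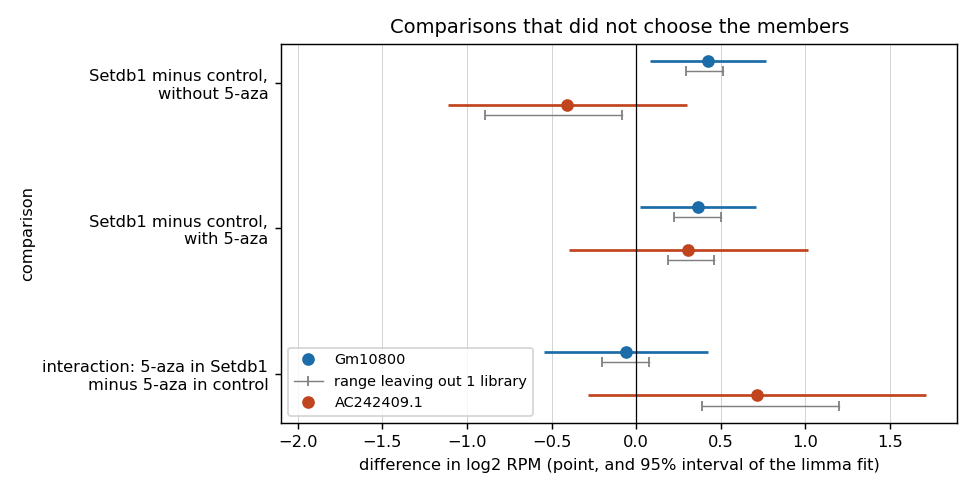
Difference in log2 RPM (horizontal axis) of Gm10800 and AC242409.1 between Setdb1 and control hairpin cells without and with 5-aza, and the interaction, as points with 95% intervals from limma; grey lines span the values when 1 library is left out. Gm10800 lies at 0.42, 0.37 and -0.06 and AC242409.1 at -0.41, 0.31 and 0.71, in that order.

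The family has more members on chromosome 9. A further 9 rows held at least 20% of their 20-base words among the 466 words that recur in the transcripts of the chromosome 2 members, with shares of 27.8% to 44.5%. All 9 lay in 1 stretch of chromosome 9, from 3000922 to 3038316 on the plus strand. No other annotated gene shared any such word, apart from Gm26870. None of the 9 reached 1 RPM in 3 hairpin libraries.

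These relatives were all but silent without 5-aza, with at most 1 read in any untreated hairpin library and 1 read in the 6 such libraries together, and 217 reads in the 6 hairpin libraries with 5-aza. Gm11168, Gm10717 and Gm10722, named here after their values were seen, held most of them. Gm11168 had 0 reads in all untreated hairpin libraries, 14, 27 and 13 with 5-aza and control hairpins, and 17, 21 and 14 with 5-aza and Setdb1 hairpins. Gm10717 had 1 read in 1 untreated library and 10 to 13 reads with 5-aza, and Gm10722 had 0 reads untreated and 3 to 8 with 5-aza. For these 3 of 9 relatives every treated library stood above every untreated one, in both kinds of cells. Of all rows, 15.6% did so with control hairpins and 19.1% with Setdb1 hairpins.

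In the fit without a filter on low values, these 3 of 9 relatives were called higher with 5-aza in control hairpin cells, where 6% of 25965 rows were called higher, and in Setdb1 hairpin cells, where 9.42% were. Gm10718, Gm10719 and Gm10720 had at most 3 reads in any library, and AC131780.1, AC131780.2 and Gm17535 had 0 reads in all 13, which allows up to 0.0510 to 0.0716 RPM in a hairpin library. The share of sequence of its own differed among these rows: 59.8% to 82.9% of the 50-base words of the members occurred in no other annotated gene, as did 39.7% for Gm10717, 33.4% for Gm10722, and 9.15% to 23.7% for Gm11168 and the 6 relatives with 0 to 3 reads.

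**Figure D4:**
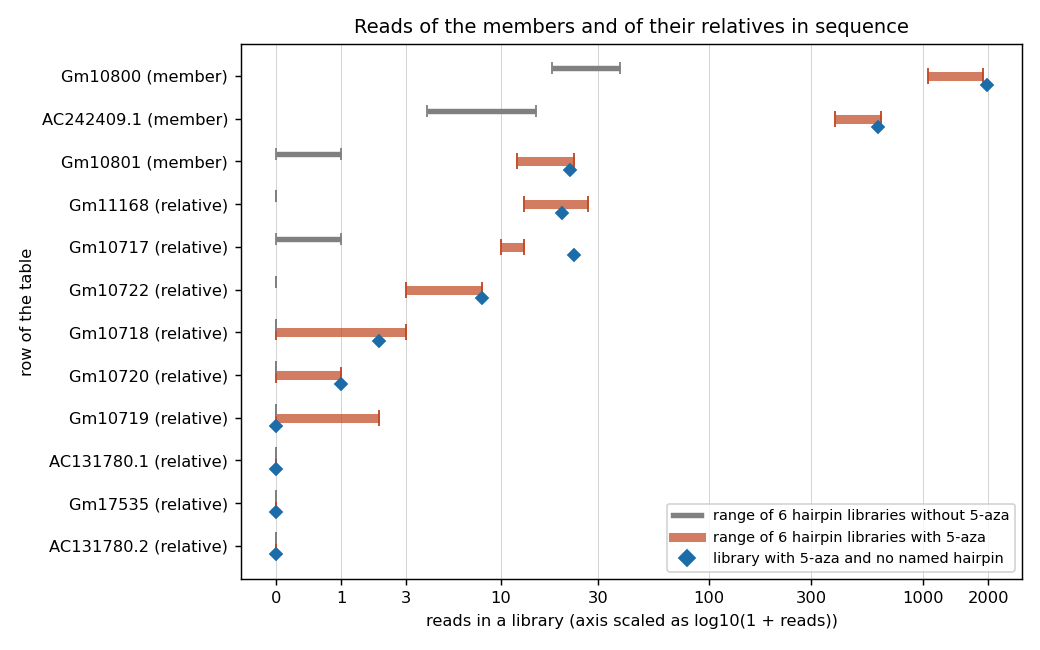
Reads per library (horizontal axis, scaled as log10 of 1 plus reads) of the 3 members and their 9 relatives in sequence, as the range over 6 untreated hairpin libraries, the range over 6 hairpin libraries with 5-aza, and the single library whose title names none. Gm11168, Gm10717 and Gm10722 go from 0 or 1 read to between 3 and 27 reads, while 3 relatives have 0 reads in every library.

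The rows beside the members had no comparable difference. The nearest listed rows around the chromosome 2 members were Lrrc4c, 1028 kb before them, and B230118H07Rik, 2891 kb after. Lrrc4c stood at 8.91 ± 0.383 RPM in control hairpin cells and 10.1 ± 0.479 RPM with 5-aza (SD, n = 3), and B230118H07Rik at 3.95 ± 0.343 and 4.59 ± 0.372 RPM (SD, n = 3). Beside AC242409.1, AC165146.1 at 13.3 kb and Gm2244 at 114 kb had 0 reads in all libraries. Gm2237 at 145 kb was listed at 0.211 ± 0.0316 RPM in control hairpin cells and 0.187 ± 0.0363 RPM with 5-aza (SD, n = 3). The nearest row that was tested, Ube2e2 at 522 kb, stood at 14.2 ± 0.962 and 15.4 ± 0.594 RPM (SD, n = 3). None of these ratios came near those of the members.

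The genes whose log2 RPM followed Gm10800 most closely over the 12 hairpin libraries were L1cam, a neural cell adhesion molecule (r = 0.990), AC242409.1 (r = 0.988), Fah, 3830417A13Rik, Ccdc136, the germ cell RNA-binding protein Dazl, Stom and Nlrc3, down to r = 0.979. For AC242409.1 they were Gm10800, 3830417A13Rik, Gm12352, Fah, Tspan17, Ociad2, the exonuclease Trex1 and Aamp, with r from 0.988 to 0.977. These correlations describe 12 points that fall into a treated and an untreated set, which they share. The sizes differed widely: the log2 difference with 5-aza in control hairpin cells was 6.05 for Gm10800, 5.88 for Dazl, 2.78 for 3830417A13Rik, 1.56 for L1cam and 0.35 for Fah. Dazl went from 0.0343 to 1.72 RPM, and was, beside the members, the only gene of these lists with a difference above 3.

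Genes that build or maintain pericentric heterochromatin were counted from a list of 30, of which 29 were in the table (Lrif1 was not) and all 29 were tested. With 5-aza in control hairpin cells, 0 rose and 5 fell in limma (0 and 10 at an unadjusted p under 0.05), with 18.8% of all genes called (median log2 difference of the list -0.09, of all tested genes 0.04). Of all 13134 tested genes, 4473 had an unadjusted p under 0.05 in limma, in either direction. The 5 were Uhrf1, which brings Dnmt1 to newly copied DNA (35.5 to 26.4 RPM, log2 difference -0.42, adjusted p = 0.0148, limma), the remodeller Hells (30.8 to 24.2 RPM, log2 difference -0.35), Incenp (38.8 to 29.4 RPM, log2 difference -0.40), Smchd1 (95.7 to 82.9 RPM, log2 difference -0.21) and the maintenance methyltransferase Dnmt1 (83.7 to 72.7 RPM, log2 difference -0.20, adjusted p = 0.0483, limma). Median centring gave 0 and 10, with 2620 of the 13134 genes called. The lysine 9 methyltransferases Suv39h1 (19.9 to 19.2 RPM, log2 difference -0.05) and Suv39h2 (4.84 to 4.68 RPM, log2 difference -0.04) were not called.

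With 5-aza in Setdb1 hairpin cells, Hmga1, an architectural protein that binds AT-rich DNA, rose (52.0 to 72.6 RPM, log2 difference 0.48), and 5 genes fell: the methyltransferase Dnmt3b (1.30 to 0.774 RPM, log2 difference -0.73), Hells (38.2 to 30.8 RPM, log2 difference -0.32), Smchd1 (113 to 98.1 RPM, log2 difference -0.21), Atrx, which loads histone H3.3 at heterochromatin (188 to 163 RPM, log2 difference -0.20), and Dicer1 (86.7 to 79.1 RPM, log2 difference -0.13). Of all tested genes, 28.9% were called in this comparison. With the cultures as a replicate block, since libraries of the same culture deviated together in these cells, 2 rose and 11 fell. In that setting 5276 of all 13134 tested genes were called. With median centring 1 rose and 12 fell, and 3506 of the 13134 genes were called.

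Between Setdb1 and control hairpin cells without 5-aza, 9 of the 29 genes rose and 2 fell, with 12.4% of all tested genes called (median log2 difference of the list 0.12, of all tested genes 0.03). With 5-aza 11 rose and 1 fell, with 19.9% of all tested genes called (median 0.08 and 0.05). Setdb1 itself fell in both (log2 difference -1.73 and -1.76). Among those that rose in both were Dnmt1 (83.7 to 107 RPM without 5-aza, log2 difference 0.36, and 72.7 to 100 RPM with it, 0.46), Uhrf1 (log2 difference 0.43 and 0.60), Suv39h1 (0.20 and 0.30), the HP1 protein Cbx1 (0.17 and 0.16), the methyl-CpG-binding Mbd1 (0.43 and 0.55) and Trim28 (0.19 and 0.24), the corepressor that recruits Setdb1. Hmga1 fell without 5-aza (log2 difference -0.53). For the interaction limma called 0 of 29 (2 at an unadjusted p under 0.05), with 0 under each scaling alternative. Of all 13134 tested genes, limma called 51, and 701 had an unadjusted p under 0.05. Suv39h1 was not called without 5-aza, nor Cbx1 with it, under median centring, and over all genes that setting moved the share of calls that were higher from 72.6% to 48.0% without 5-aza and from 73.0% to 48.7% with it.

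All 3 members were highest in the 5-aza library whose title names no hairpin, which was not used to choose them. It held 1970 reads of Gm10800, 615 of AC242409.1 and 22 of Gm10801, from its 20.4 M reads. In RPM these were 96.6 (95% exact Poisson interval 92.4 to 101), 30.2 (27.8 to 32.7) and 1.08 (0.676 to 1.63). They were 2.55, 2.40 and 2.36 times the highest of the 6 hairpin libraries with 5-aza. Of the tested genes, 108 (0.822%) stood over 2 times above the highest of the 6, and 25.2% stood above all 6. The ratio of Gm10800 to AC242409.1 reads was 3.20, inside the range of the hairpin libraries. Among the relatives, Gm10717 (1.13 RPM), Gm11168 (0.981 RPM) and Gm10722 (0.392 RPM) were above all 6 as well. Setdb1 stood at 47.0 RPM there. All 6 macrophage markers were above their hairpin libraries, with a sum of 105 RPM against 10.3 to 14.7 RPM, and Lyz2 at 55.9 RPM against 0.239 to 1.10 RPM. The muscle markers summed to 52.6 RPM, against at most 33.7 RPM in a hairpin library. The fibroblast markers summed to 40470 RPM, against at most 37534 RPM. The pluripotency sum, 0.343 RPM, lay below all hairpin libraries, and the endothelial, epithelial and germ cell sums lay within their range. With 1 such library, no error between libraries can be given. The part of the other cells, of the strain or of the unnamed hairpin in these levels was not tested.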

How the data were processed

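Poly(A) RNA of 13 MEF libraries was sequenced after TruSeq preparation. The deposited table holds log2 RPM (log2 of reads per gene interval per 1000000 reads), made by the authors, per the labels with CASAVA 1.4 and mm10; the aligner, counter, strand and treatment of multiply matching reads are not given in the sources used here. All values below 1000 reads were whole multiples of 1 read (tolerance 0.1), with 0.9 read entered for none, and reads were recovered from these steps. The intervals and limits given for single libraries cover counting error only.

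Members and lists were chosen with earlier results of these data known. Log2 RPM was fitted with limma 3.58.1 (R 4.3.3; group means, eBayes with trend) over the 12 hairpin libraries, for genes with at least 1 RPM in 3 of them. Benjamini-Hochberg adjustment was over all 13134 genes, two-sided, at 0.05. The script was tested on simulated data. Gm10801 was compared by an exact permutation test.

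Text names the members, sequence relatives, some of the 3 nearest rows on each side, most list genes that were called or that a result turns on, and the 8 genes most alike to each tested member. Called differences of Cbx3, Suv39h2 and Cdca7 between hairpins were counted, and their values are not given. Relatives were sought with words of the window's transcripts, since a genome sequence was not used here; 96.4% of rows matched GENCODE M21. Filters, pseudocounts, scaling, single libraries, hairpins, a replicate block and word length were varied. Deviations of libraries from the same culture correlated at 0.41 to 0.63 in Setdb1 hairpin cells and at 0.0999 to 0.59 in control hairpin cells, so that numbers pair the libraries in Setdb1 hairpin cells by a limit of 0.1.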

Additional observations from a re-analysis of the deposited data

Results flagged for a closer look

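In the library treated with 5-aza whose title names no hairpin, which entered no comparison between groups, Gm10800 stood at 96.6 RPM, AC242409.1 at 30.2 RPM and Gm10801 at 1.08 RPM. Each was above the level in the untreated control hairpin libraries, whose highest values were 0.446, 0.265 and 0.0216 RPM, and above every hairpin library with 5-aza. Groups of 3 libraries are too small for a search for single libraries far from the others.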

How the results depend on the processing

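Of the members' comparisons between hairpins, those of Gm10800 stayed short of the threshold under all 20 alternatives, without 5-aza (leaving out 1 library, 0.29 to 0.51, but 0.14 with log2(RPM + 1) and 0.00459 with quantile normalization) and with it (0.22 to 0.50). The difference of AC242409.1 without 5-aza ran from -0.89 to -0.0831 when 1 library was left out and was -1.87 with quantile normalization, and its interaction ran from 0.39 to 1.20 and was 2.11 with quantile normalization; the cause was not tested. The interaction of Gm10800 changed sign with log2(RPM + 1) (0.22), log2(RPM + 0.1) (0.0139) and quantile normalization (0.31), and ran from -0.20 to 0.0775 when 1 library was left out, never past the threshold. No sign of a 5-aza difference of a member changed, and the lowest values came with log2(RPM + 1), at 4.30 and 4.51 for Gm10800 and 3.15 and 3.50 for AC242409.1 with control and Setdb1 hairpins. At least 5 RPM in 3 libraries left both tested members in the fit.

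Called genes numbered 1630 (Setdb1 against control hairpin without 5-aza), 2609 (with 5-aza), 2471 (5-aza, control hairpin), 3792 (5-aza, Setdb1 hairpin) and 51 (interaction). With replicates A and B alone, where fewer libraries enter, they were 470, 1403, 1532, 2306 and 8. With the replicate block, the culture for the 5-aza comparisons and the interaction and the replicate number for those between hairpins, they were 2388, 3751, 3902, 5276 and 169, and no call of a member changed. Same-numbered libraries of different hairpins correlated at -0.47 to 0.69 in their deviations. The labels do not say whether such libraries share more than the number. The interaction count was 19 with the filter at 5 RPM. When 1 library was left out, the counts ran from 721 to 1832, from 1279 to 3428, from 1260 to 2718, from 2191 to 4193 and from 29 to 43. The 31 called differences of list genes other than Cbx3, Suv39h2 and Cdca7 stayed past the threshold in 556 of 619 alternative values, with 0 reversed. Relatives numbered 1 with words of 31 bases and 0 at a least share of 50%, against 9. Untreated levels of the members rest on 0 to 38 reads per library, which limits every ratio to them.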
